A study of Mus musculus with 12 samples.

Results

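The interferon-stimulated genes examined in the proximal colonic mucosa were 9 genes, Ifit1, Ifit2, Ifit3, Isg15, Irf7, Oasl2, Rsad2, Usp18 and Zbp1. They were found by symbol after the Ensembl identifiers of the count tables were matched to mouse gene names. All 9 were among the 38924 genes of the tables, and all 9 were among the 20311 genes that were tested, a gene being kept when 3 or more mice had 10 or more counts. No member of the group had fewer than 124 counts in any mouse. Total RNA came from 12 female C57BL/6 mice aged 6 weeks, of which 6 were wild type (WT) and 6 were APC Min/+. APC Min/+ mice are heterozygous for the Min allele of Apc, a truncating germline mutation of a tumour suppressor that restrains Wnt signalling, so every cell type of the mucosa carries it. The study compared the genotypes at an age before polyps are seen, and each library came from a different mouse, which is named below as in the labels.

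Type I and type III interferons are secreted proteins that cells release when they sense foreign nucleic acid. These interferons act through their receptors on transcription factors that bind the interferon-stimulated response element (ISRE) in the promoters of their target genes. In the intestine, type III interferon acts mainly on epithelial cells, and commensal microbes are known to keep interferon-stimulated genes at a tonic level without infection.

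The promoters of the group are shown because the ISRE is the sequence that ties these genes to interferon signalling. RefSeq promoter windows from 250 bases before to 50 bases after the gene start (GRCm38.p6) were held for 7 of the 9 genes, and Usp18 and Zbp1 were without an entry. The ISRE core, GAAA and GAAA with any 2 bases between them, was sought on both strands and found in the windows of 4 of these 7 genes, Ifit1, Ifit3, Isg15 and Rsad2, whereas 3.99% of all 27025 genes with a window held it. The windows of Ifit2, Irf7 and Oasl2 did not hold these letters. The core was not particular to the group. Of the further lists described below, it was held by 13 of 28 other interferon-stimulated genes with a window and 11 of 19 interferon-gamma-inducible genes. The stretches with the matches are printed below in the direction of the gene, in lower case with the ISRE matches in capitals.
Ifit1, chr19:34640765-34640833, plus strand: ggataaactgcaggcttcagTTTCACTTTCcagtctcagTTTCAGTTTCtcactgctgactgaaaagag
Ifit3, chr19:34583353-34583436, plus strand: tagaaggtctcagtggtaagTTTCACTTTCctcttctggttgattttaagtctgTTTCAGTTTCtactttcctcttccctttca
Isg15, chr4:156200855-156200916, minus strand: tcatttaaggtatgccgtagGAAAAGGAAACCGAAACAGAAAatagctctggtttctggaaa
Rsad2, chr12:26456543-26456592, minus strand: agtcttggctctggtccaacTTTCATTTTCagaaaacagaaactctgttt
Ifit1 held 2 matches, which began 104 and 85 bases before its start, and Ifit3 held 2, at 156 and 122 bases. Both Ifit promoters carried the same pair of cores, TTTCACTTTC followed by TTTCAGTTTC. In Isg15, 3 overlapping matches began 78, 72 and 66 bases before the start, so that the capitals form 1 run, and Rsad2 held 1 match at 120 bases. The gamma-activated site, TTC and GAA with any 3 bases between them, was found in the window of 1 of the 7 genes, Ifit2, and in 9.55% of all genes. These matches describe letters in a window and do not show that a factor was bound.

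Total counts ranged from 50313805 to 197914821 per mouse, so that 3 counts corresponded to 0.0152 to 0.0596 CPM (counts scaled to a common library total of 1000000), far below the level of any gene of the group. Of genes with 1 to 20 counts in a mouse, 75.7 to 81.2% had an even count, so both reads of a pair may have been counted and 2 counts may stand for 1 fragment. Levels below are in CPM after the library totals were scaled by TMM factors, which ranged from 0.906 to 1.1. The epithelial marker Epcam was at 1239 to 1624 CPM in all 12 mice and the smooth muscle marker Myh11 at 1423 to 2401 CPM, so the samples held muscle RNA as well as mucosal epithelium. In bulk tissue, fewer cells of a type and less RNA per cell cannot be told apart. Libraries of 3 mice stood apart from the rest. The APC Min/+ mice M10_2 and M13_1 had 378 and 275 CPM of Hoxb13, a transcription factor gene of the distal colon, where the other 10 mice had at most 0.744 CPM, which goes against the proximal label. WT mouse M17_1 was the highest of the 12 mice for 20.9% of all genes tested and lay at least 2-fold below the median mouse for 10.5% of them. Apc itself was at 164 to 216 CPM in APC Min/+ mice and at 154 to 239 CPM in WT mice, which does not check the genotype labels, because the Min mutation leaves the gene transcribed.

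Per length of transcript, Irf7 was the most abundant gene of the group. Its median over the 12 mice was 40.3 RPKM (CPM per kilobase of transcript, SD = 13.9), followed by Ifit1 at 10.1 (SD = 7.03), Oasl2 at 9.35 (SD = 5.48), Ifit3 at 7.51 (SD = 2.35) and Isg15 at 7.12 (SD = 3.72). Ifit2 had a median of 3.34 RPKM (SD = 0.604), Zbp1 3.33 (SD = 1.42), Usp18 2.07 (SD = 0.937) and Rsad2 1.42 (SD = 0.571). Irf7 stood above the rest by more than this spread. The step from Isg15 to Ifit2 was about as large as the SD of Isg15, and the other neighbours in this order differed by less than the larger SD of the pair.

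The Ifit genes encode proteins with tetratricopeptide repeats that bind foreign RNA and block its translation. They are neighbours on chromosome 19, where Ifit2 (ENSMUSG00000045932.6), Ifit3 (ENSMUSG00000074896.3) and Ifit1 (ENSMUSG00000034459.8) lie within 99.3 kb on the plus strand (GRCm38, positions 34550694 to 34650009). Ifit1 ranged from 7.19 to 38.2 CPM (median 27.3) in APC Min/+ mice and from 13.7 to 81.1 CPM (median 26.6) in WT mice. The highest value was that of WT mouse M17_1, 2.12-fold above the next mouse, and the lowest that of APC Min/+ mouse M13_1, while the other mice of both genotypes overlapped. Ifit2 ranged from 11.97 to 16.2 CPM (median 13.5) in APC Min/+ mice and from 9.26 to 18.1 CPM (median 12.5) in WT mice. Its log2 CPM varied least of the 9 genes (SD = 0.258 over the 12 mice, against 0.433 to 0.861 for the others), and M17_1 was again highest but only 1.12-fold above the next mouse. Ifit3 ranged from 7.93 to 15.9 CPM (median 13.2) in APC Min/+ mice and from 7.88 to 23.1 CPM (median 13) in WT mice, with M17_1 the highest and the WT mouse M17_2 the lowest. Of the 100-base stretches of the Ifit3 transcript, 31.7% are identical in Ifit3b, so reads could be split or lost between these copies, and the value of Ifit3 is uncertain to that extent.

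Oasl2, Rsad2 and Zbp1 act against viruses in other ways. Oasl2 encodes an oligoadenylate synthetase-like protein, Rsad2 encodes viperin, a radical SAM enzyme that makes a chain-terminating nucleotide, and Zbp1 encodes a sensor of Z-form nucleic acid that can trigger necroptosis. Oasl2 (ENSMUSG00000029561.11, chromosome 5) ranged from 16.9 to 45.7 CPM (median 37.8) in APC Min/+ mice and from 19.04 to 98.8 CPM (median 32.2) in WT mice. M17_1 was 2.16-fold above the next mouse, and M13_1 was lowest. Rsad2 (ENSMUSG00000020641.9, chromosome 12) ranged from 5.04 to 9.71 CPM (median 7.26) in APC Min/+ mice and from 3.07 to 12.2 CPM (median 5.93) in WT mice. Zbp1 (ENSMUSG00000027514.8, chromosome 2) ranged from 10.6 to 18.7 CPM (median 13.06) in APC Min/+ mice and from 7.06 to 25.4 CPM (median 10.6) in WT mice. For both genes M17_1 was the highest mouse and the APC Min/+ mouse M10_2 the next, and the ranges of the genotypes overlapped.

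Isg15 encodes a ubiquitin-like protein that is attached to other proteins, and Usp18 encodes the protease that removes it and also dampens signalling from the type I interferon receptor. Isg15 (ENSMUSG00000035692.6, chromosome 4) ranged from 2.87 to 8.14 CPM (median 5.61) in APC Min/+ mice and from 2.80 to 13.2 CPM (median 4.63) in WT mice. Usp18 (ENSMUSG00000030107.9, chromosome 6) ranged from 1.97 to 5.30 CPM (median 3.96) in APC Min/+ mice and from 2.29 to 8.18 CPM (median 3.34) in WT mice. M17_1 was the highest mouse for both genes. The lowest mouse was M17_2 for Isg15 and M13_1 for Usp18, so the low end of both ranges held mice of each genotype.

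Irf7 encodes the transcription factor that amplifies type I interferon production, and its values across the mice did not follow those of the other 8 genes. Irf7 (ENSMUSG00000025498.8, chromosome 7) ranged from 30.6 to 155 CPM (median 122) in APC Min/+ mice and from 107 to 171 CPM (median 124) in WT mice. The low values were those of 2 APC Min/+ mice, M10_2 at 35.4 CPM and M13_1 at 30.6 CPM, and the other 10 mice lay between 107 and 171 CPM. M17_1 had 113 CPM of Irf7, below the median of the 12 mice.

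**Figure D1:**
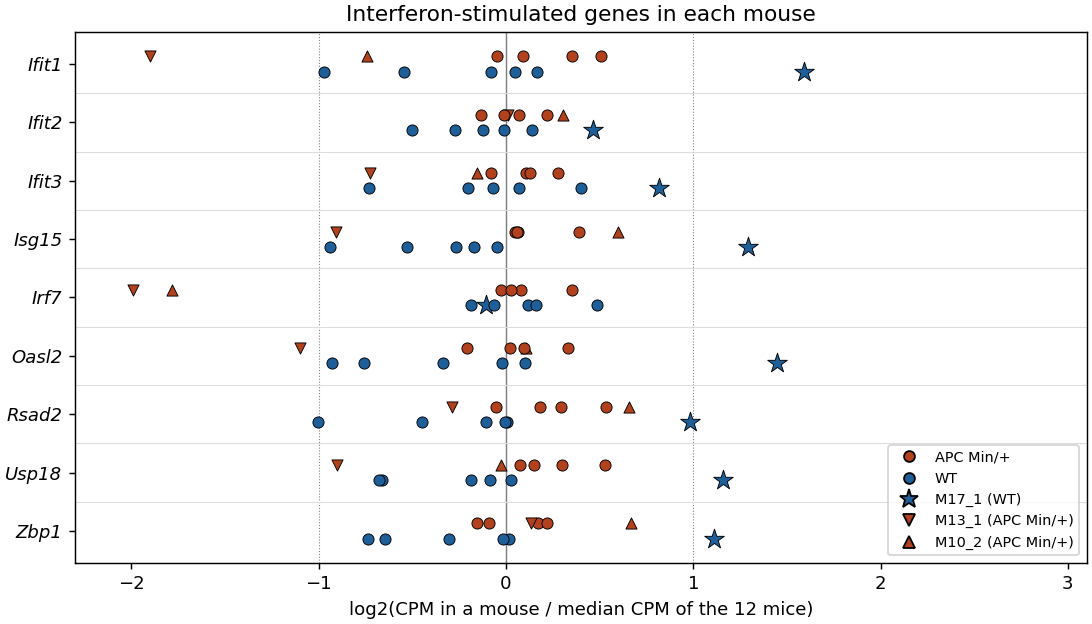
Level of each of the 9 interferon-stimulated genes in each mouse, as the log2 ratio of its CPM to the median CPM of the 12 mice (horizontal axis, dotted lines at 2-fold), with APC Min/+ mice in orange above and WT mice in blue below in each row. The star, WT mouse M17_1, is at the right end of 8 of the 9 rows, and the triangles, APC Min/+ mice M10_2 and M13_1, lie far to the left for Irf7.

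Whether the group differed between the genotypes was tested by the quasi-likelihood method of edgeR, and p-values were adjusted over all 20311 genes by the Benjamini-Hochberg procedure. None of the 9 genes passed an adjusted p of 0.05 and a 2-fold change, and 0 of all genes tested did (0%). At an unadjusted p under 0.05, none of the 9 genes passed against 5.27% of all genes. DESeq2 called 27 genes and edgeR's exact test 10, and neither called a gene of the group. The ranges of the genotypes overlapped for all 9 genes, where 0.118% of all genes had ranges that did not.

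As log2 fold change of APC Min/+ over WT, the largest decreases in the means were those of Ifit1, -0.39 (SE = 0.443), and Irf7, -0.39 (SE = 0.354). Ifit1 had an adjusted p of 0.911 by edgeR's quasi-likelihood test, and an exact permutation test of its log2 CPM over the 924 splits of the mice gave a two-sided p = 0.561. Irf7 had an adjusted p of 0.91 by edgeR's quasi-likelihood test and an exact permutation p = 0.277. The largest increase was that of Rsad2, 0.22 (SE = 0.279), with an adjusted p of 0.911 by edgeR's quasi-likelihood test and an exact permutation p = 0.333. The differences of the other 6 genes were all smaller than their standard errors. They were 0.10 (SE = 0.150) for Ifit2, -0.17 (SE = 0.233) for Ifit3, 0.03 (SE = 0.347) for Isg15, -0.22 (SE = 0.370) for Oasl2, 0.00 (SE = 0.316) for Usp18 and 0.13 (SE = 0.282) for Zbp1. Their exact permutation p ranged from 0.424 to 0.926. Differences of this size were within the spread between mice. In all, 5 genes had a higher fitted level in APC Min/+ mice and 4 a lower one, whereas upper-quartile scaling gave 3 and 6, because the signs of Isg15 and Usp18 turned.

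To set the mice in order, an interferon score was computed for each mouse as the mean, over the 9 genes, of the log2 difference from the median of the 12 mice. M17_1 had the highest score, 0.97, and M2_A, an APC Min/+ mouse, the next, 0.25. The lowest scores were -0.85 in APC Min/+ mouse M13_1, -0.65 in WT mouse M17_2 and -0.55 in WT mouse M18_b. The other 8 mice, M2_A among them, lay between -0.04 and 0.25. This band held 5 of the 6 APC Min/+ mice and 3 of the 6 WT mice. The mean score was -0.06 ± 0.404 (SD, n = 6) for the APC Min/+ genotype and -0.04 ± 0.576 (SD, n = 6) for WT. Without M17_1, the WT mean was -0.24 ± 0.330 (SD, n = 5). With Irf7 left out of the score, M17_2 was the lowest mouse at -0.709 and M13_1 the next at -0.707.

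**Figure D2:**
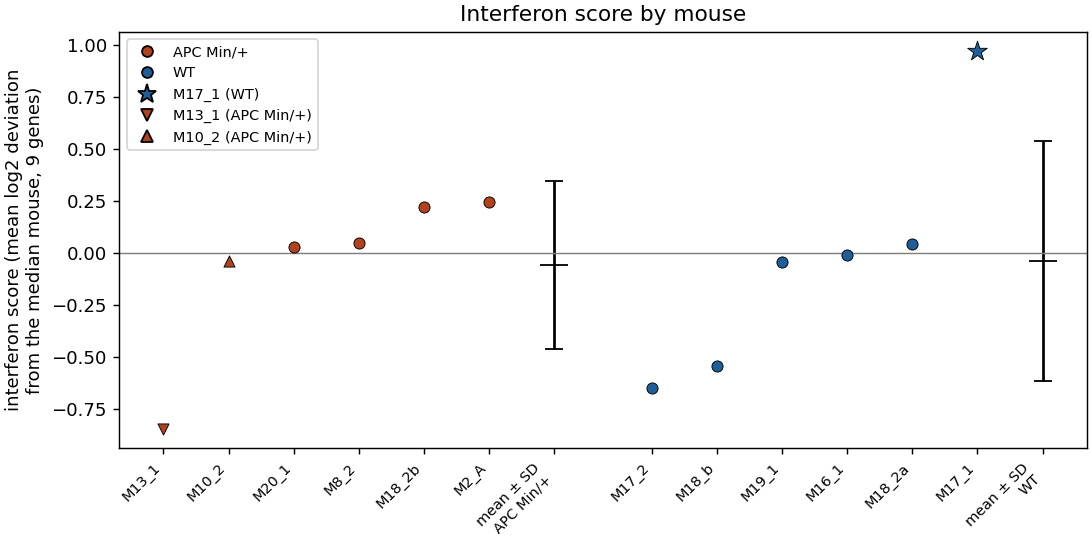
Interferon score of each mouse (vertical axis, mean over 9 genes of the log2 deviation from the median mouse), sorted within each genotype, with the mean and SD of 6 mice beside each group. M17_1 stands at 0.97 among the WT mice, the other 11 mice lie at or below 0.25, and the group means nearly coincide.

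M17_1 was the highest mouse for 8 of the 9 genes, all but Irf7, where 20.9% of all genes tested were highest in that mouse. Against the median mouse, Ifit1 was 3.02-fold higher in M17_1, Oasl2 2.72-fold, Isg15 2.45-fold, Usp18 2.23-fold and Zbp1 2.16-fold. These 5 of 9 genes were at least 2-fold above the median, where 5.51% of all genes tested and 1.44% of the 10408 genes with a mean level in the range of the group, 3.88 to 114 CPM, were. Rsad2 was 1.97-fold higher, Ifit3 1.76-fold and Ifit2 1.38-fold, and Irf7 was at 0.93 of the median. Against the median of the other 5 WT mice, the ratios were 3.44 for Oasl2, 3.19 for Ifit1, 2.95 for Isg15, 2.67 for Zbp1 and 2.54 for Usp18. M17_1 was singled out after its values were seen and is 1 library, so these ratios are a description with no test. Its score was the highest of the 12 mice in each of 14 other computations, which used other scaling factors, another prior count, the median of the genes, or left out each gene in turn, and ranged there from 0.895 to 1.15.

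At the low end, M13_1 was at least 2-fold below the median mouse for 3 of the 9 genes, where 9.04% of all genes tested were. These were Irf7 at 0.251 of the median, Ifit1 at 0.267 and Oasl2 at 0.466. Ifit2 and Zbp1 were at 1.01 and 1.10 of the median in the same mouse, so its genes did not move together. M10_2 was at least 2-fold below for Irf7 only, at 0.291 of the median (7.73% of all genes), and above it for Zbp1 (1.59), Rsad2 (1.58) and Isg15 (1.51). M17_2, the library with the fewest counts, was below the median for all 9 genes, from 0.510 for Ifit1 to 0.879 for Irf7. None of the 9 was at least 2-fold below in M17_2, where 4.22% of all genes were. M18_b was likewise below the median for all 9, from 0.499 for Rsad2 to 0.955 for Irf7, with 1 gene of the group and 4.59% of all genes at least 2-fold below. The share of all genes below the median in M17_2 and M18_b is not given here, so these counts are not set against their libraries.

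Since single mice carried much of the spread, the genotype comparison was repeated without them. Without M17_1, 8 of the 9 genes had a higher fitted level in APC Min/+ mice, all but Irf7. By edgeR's quasi-likelihood test Zbp1 then differed by 0.49 (unadjusted p = 0.0177) and Rsad2 by 0.52 (unadjusted p = 0.0278) on the log2 scale, and the lowest adjusted p of the 9 genes was 0.999. These 2 of 9 genes stood beside 3.84% of all genes with an unadjusted p under 0.05 in the same fit. M17_1 had been singled out for its high values of 8 of these genes, so leaving it out lowers their WT means by construction. Leaving out M10_2 and M13_1 in place of M17_1 moved Irf7 from -0.39 to 0.03, and the lowest unadjusted p was then 0.483, for Rsad2. Without all 3 mice, 8 genes were again higher in APC Min/+ mice and 3 of 9 had an unadjusted p under 0.05 in edgeR, beside 1.24% of all genes in that fit. Usp18 led them with an unadjusted p = 0.0116 and an adjusted p = 1 by edgeR's quasi-likelihood test. The fit without all 3 mice was added after seeing the data. It left out both the highest score, that of M17_1, and the lowest, that of M13_1. Its shift toward APC Min/+ was therefore partly built in, and its 3 of 9 genes are no test of the group. No gene of the group passed the adjusted threshold in any of these fits, so the direction of the comparison depended on which mice were kept and its call did not.

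**Figure D3:**
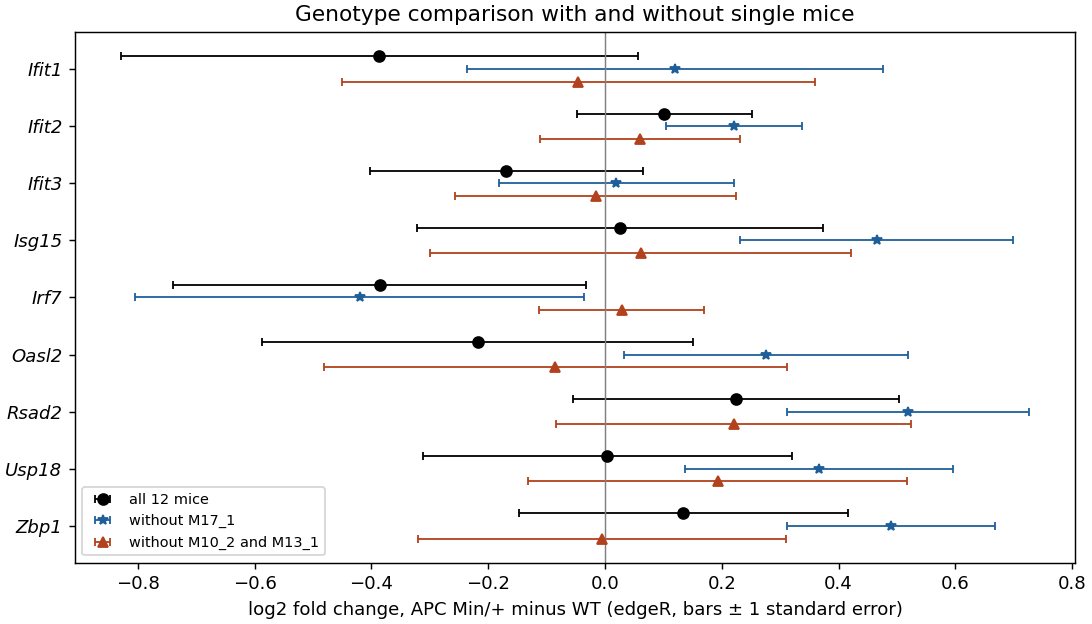
Log2 fold change of APC Min/+ over WT (horizontal axis, bars of 1 standard error, edgeR) for the 9 genes in the fit of all 12 mice (black), without WT mouse M17_1 (blue) and without APC Min/+ mice M10_2 and M13_1 (orange). Without M17_1, 8 of the 9 genes lie to the right of 0, and without M10_2 and M13_1, Irf7 moves from -0.39 to 0.03.

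Across the 12 mice, 8 of the genes varied together and Irf7 followed them less. The Pearson correlation of log2 CPM between pairs of the 8 genes other than Irf7 had a median of 0.81 over 28 pairs, the lowest being 0.46. The 8 pairs with Irf7 had a median of 0.19, from -0.31 to 0.64. Against the mean of the other members, Usp18 followed most closely (r = 0.97), then Oasl2 (0.95), Ifit1 (0.92), Ifit3 (0.90) and Isg15 (0.90), whereas Rsad2 (0.77), Ifit2 (0.68) and Zbp1 (0.61) followed less. Without M17_1, these values were 0.95 for Usp18, 0.50 for Ifit2 and 0.32 for Zbp1. Without M10_2 and M13_1, the 8 genes had values from 0.88 to 0.98, and Irf7 had 0.02, against 0.24 in all 12 mice. These are descriptions of 12 libraries, in which every gene shares the depth and scaling of its library.

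The 2 mice with little Irf7 were those with distal markers. Besides Hoxb13, M10_2 and M13_1 had 2291 and 2064 CPM of Tgm3, a transglutaminase gene, where the other 10 mice had 0.294 to 5.37 CPM, and 76.6 and 61.8 CPM of Hoxa13, where the others had 0.921 to 2.75. The lists of 4 other cell types were also at their lowest summed levels in these 2 mice, B and plasma cell markers by a small margin (93.3 and 85.7 CPM, against at least 93.5 CPM). Jchain alone made up 85.6 and 48.7 CPM of these B and plasma cell sums. With each marker of that list weighted alike, the list was not low in either mouse. Its mean log2 deviation from the median mouse was 0.173 in M10_2 and 1.58 in M13_1. Epithelial markers summed to 11074 CPM in M10_2 and 9708 CPM in M13_1, against at least 14047 CPM in the other 10 mice, T and NK cell markers to 8.15 and 7.17 CPM, against at least 8.74 CPM, and adipocyte markers to 24.2 and 44.9 CPM, against at least 52.8 CPM. The part of colon position and of these cell types in the Irf7 level was not tested. Within the other 10 mice, the log2 fold change of Irf7 between the genotypes was 0.03 (SE = 0.14, edgeR).

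**Figure D4:**
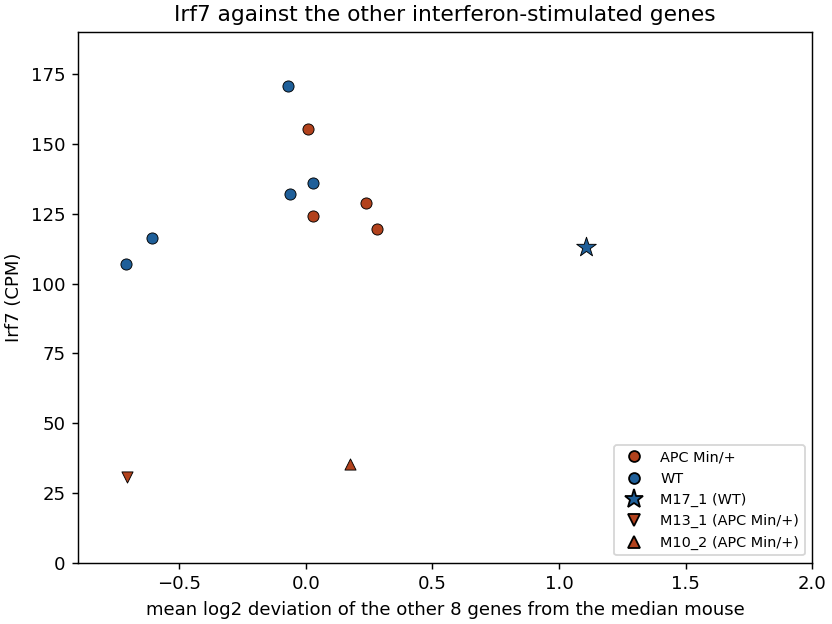
Irf7 level (vertical axis, CPM) against the mean log2 deviation of the other 8 genes from the median mouse (horizontal axis), 1 point per mouse, APC Min/+ in orange and WT in blue. M10_2 and M13_1 lie at 35.4 and 30.6 CPM, the other 10 mice between 107 and 171 CPM, and M17_1, far to the right for the other genes, is at 113 CPM.

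The wider pathway was described with lists of other genes. Of 37 other interferon-stimulated genes, all 37 were tested, none passed the adjusted threshold between the genotypes by edgeR's quasi-likelihood test, and their median log2 fold change was 0.01, beside -0.01 over all genes. Mx1, which encodes a dynamin-like antiviral GTPase, had the lowest p of the list, with 5.99 to 7.37 CPM in APC Min/+ mice, 6.84 to 12.1 CPM in WT mice and a log2 fold change of -0.43 (SE = 0.145, unadjusted p = 0.011, adjusted p = 0.908, edgeR). In M17_1, 20 of the 37 genes were the highest of the 12 mice (20.9% of all genes tested) and 8 were at least 2-fold above the median (5.51%). Oas2, an oligoadenylate synthetase gene, had 18.9 CPM there and 2.07 to 7.02 CPM in the other 11 mice. Phf11d had 30.4 CPM in M17_1 and 5.37 to 13.11 CPM elsewhere, and Rtp4 had 22.1 CPM and 3.72 to 11.7 CPM elsewhere. Not all genes of the list were high in that mouse. Samd9l, the most abundant, was 1.62-fold above the median, whereas Lgals3bp was at 0.956 of it and Ifih1, which encodes the RNA sensor MDA5, at 0.949.

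Genes that interferon-gamma induces were higher in M17_1 by less. Of 23 tested genes, 12 were highest in M17_1, beside 20.9% of all genes tested. Only Cxcl9, a T-cell-attracting chemokine gene, was at least 2-fold above the median, where 5.51% of all genes were. It had 2.46 CPM against 0.420 to 2.11 CPM in the other 11 mice. The median ratio of the list was 1.34, against 1.49 for the other interferon-stimulated genes and 2.16 for the 9 genes themselves. Nlrc5, an activator of MHC class I genes, was 1.78-fold above the median, Ido1, a tryptophan-degrading enzyme gene, 1.59-fold, and the abundant Irf1 was at 0.993 of it, with Psmb10 at 1.15 and Irgm1 at 1.34. Between the genotypes none of the 23 genes passed the adjusted threshold, and Cxcl10 had the lowest p, with a log2 fold change of 0.76 (SE = 0.355, adjusted p = 0.908, edgeR). Its highest value was the 3.87 CPM of M10_2, where the other 11 mice lay between 0.598 and 1.46 CPM.

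The receptors and signal transducers as a list were not raised in M17_1. Of 12 genes, 2 were highest there, beside 20.9% of all genes tested, and the median ratio was 0.872. Irf9, a transcription factor gene of the ISRE pathway, was nevertheless 1.59-fold above the median mouse, at 59.9 CPM against 29.1 to 42.8 CPM in the other 11 mice, and Stat2 was 1.26-fold above it. Jak1 and the receptor subunit gene Ifngr2 were the lowest of the 12 mice in M17_1, at 0.749 and 0.795 of the median. Ifngr1, the most abundant gene of the list, was at 0.989 there and had the lowest p between the genotypes, with a log2 fold change of 0.19 (SE = 0.135, adjusted p = 0.908, edgeR). None of the 12 genes passed the adjusted threshold.

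Of 14 genes for nucleic acid sensing upstream of interferon, 4 were highest in M17_1, beside 20.9% of all genes tested. Their median ratio was 1.03, and that of all genes was likewise 1.03. Tlr7 and Tlr3, receptors for single-stranded and double-stranded RNA, were 1.44-fold and 1.41-fold above the median and Ikbke, a kinase that activates Irf3 and Irf7, 1.32-fold. The kinase gene Tbk1 was at 1.23 of the median and the adaptor gene Mavs at 0.818. None of the 14 passed the adjusted threshold between the genotypes. Ikbke had the lowest p, with 42.1 to 51.6 CPM in APC Min/+ mice, 51.7 to 68.2 CPM in WT mice and a log2 fold change of -0.29 (SE = 0.0893, unadjusted p = 0.00611, adjusted p = 0.908, edgeR). Its ranges did not overlap, as for 0.118% of all genes.

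Transcripts of the interferons themselves were at or near 0 in every mouse. Of 21 interferon genes listed, 17 were in the tables, 10 of these had no count in any mouse and none was expressed enough to be tested. Summed over the 17 genes, counts ranged from 0 to 22 per mouse, and M17_1 had 0, as had M20_1 and M18_b. Ifng had at most 16 counts, in M10_2, and these counts may stand for fewer fragments. At this depth, an interferon transcript in M17_1 below 3 counts was not detectable.

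**Figure D5:**
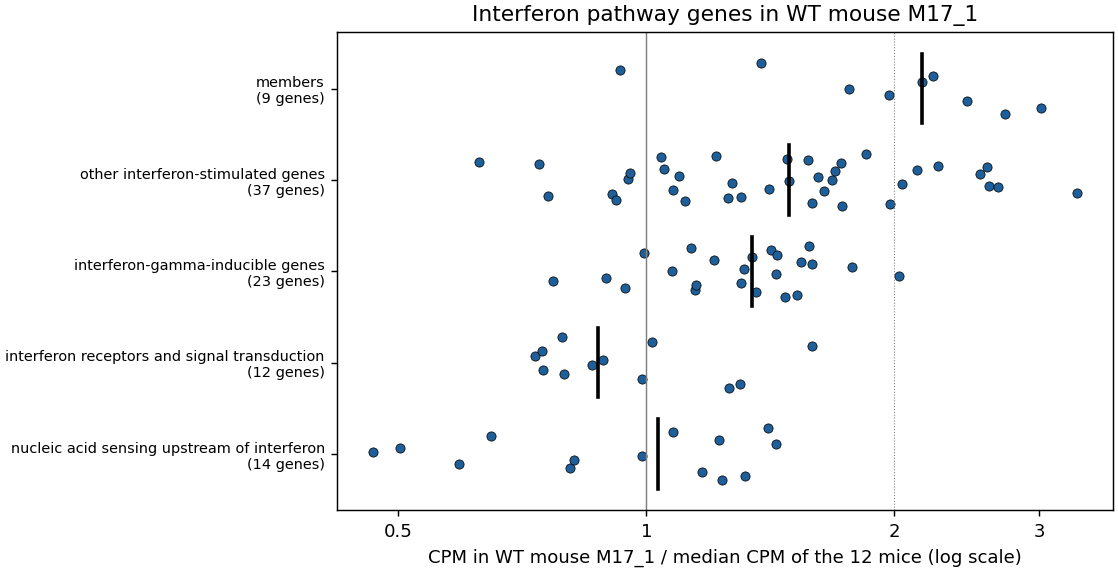
Ratio of the CPM of WT mouse M17_1 to the median CPM of the 12 mice (horizontal axis, log scale, dotted line at 2-fold) for each tested gene of the group and of 4 further lists, with the median of each list as a black bar. The medians are 2.16 for the 9 genes, 1.49 for other interferon-stimulated genes, 1.34 for interferon-gamma-inducible genes, 0.872 for receptors and signal transduction and 1.03 for nucleic acid sensing.

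Genes outside the group that followed it most closely were ranked by the Pearson correlation of their log2 CPM with the interferon score over the 12 mice, among 14889 genes with a mean of at least 1 CPM. The 10 genes with the highest correlation, from 0.913 to 0.966, included Oas2, Depp1, Apol9a, Apol9b, Gm5431, Gm43302, Tlr3, Rtp4 and Igtp. All 10 were highest in M17_1, as were 49 of the first 50, and their correlations over the other 11 mice were 0.840 to 0.937. M17_1 was the extreme mouse of the score, so its top place in these genes was largely built into the ranking. The correlations over 11 mice belong to genes already picked on all 12. The lists of interferon genes held 5 of the 10 and 18 of the first 50, where they held 0.571% of the genes ranked. Among the others, the apolipoprotein L genes Apol9a and Apol9b were 3.45-fold and 4.34-fold above the median in M17_1. Identical 100-base stretches made up 34.9% of the Apol9b transcript, shared with Apol9a, and 98.8% of Gm43302, shared with Gbp6, so the levels of these genes are uncertain to that extent.

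Some markers of other cell types also stood high in M17_1. The summed level of 7 B and plasma cell markers was 791 CPM there and 85.7 to 763 CPM in the other 11 mice, and 772 CPM of it was the plasma cell gene Jchain, followed by Mzb1 (9.07 CPM). With each of the 7 markers weighted alike, as the mean log2 deviation from the median mouse, M13_1 was highest at 1.58, above M17_1 at 1.55 and M16_1 at 1.46. M13_1, the mouse with the lowest interferon score, thus had the highest mean deviation in this list and the lowest summed level, 85.7 CPM. The 9 T and NK cell markers summed to 17.3 CPM, against 7.17 to 15.2 CPM, with Cd4 at 3.104 CPM and Cd8a at 3.85 CPM. Of 8 epithelial markers, only 2 were above the median mouse in M17_1 (53.8% of all genes tested) and 2 were at least 2-fold below it (10.5%). Their median ratio was 0.710. Their summed level was not low, at 19247 CPM in M17_1 against 9708 to 19521 CPM in the other 11 mice. Muc2, the mucin gene of goblet cells, was 1 of the 2 above, at 10535 CPM against 1268 to 6817 CPM, and Krt8 was lowest in M17_1, at 2406 CPM. A list of 7 markers of plasmacytoid dendritic cells, which are major producers of type I interferon, summed to 2227 CPM against 690 to 1251 CPM, but 2145 CPM of that was Klk1. Tcf4 was at 63.2 CPM, against 49.5 to 86.0 CPM, and the defining marker Siglech was at 0.829 CPM, within the 0.613 to 2.07 CPM of the other 11 mice. Of the 6 tested markers of this list, 5 were above the median mouse in M17_1 (53.8% of all genes tested) and 3 were highest there (20.9%). Their median ratio was 1.48. Weighted alike, their mean log2 deviation was highest in M17_1, at 0.404, followed by M2_A at 0.306. Bst2, 1 of the 3 that were highest there, is also on the list of other interferon-stimulated genes. It was at 15.9 CPM in M17_1, against 8.15 to 13.8 CPM in the other 11 mice. These values are therefore not separate from the interferon genes. Macrophage and dendritic cell markers summed to 263 CPM, within the range of 222 to 437 CPM, led by Lyz2 and Csf1r. The part of these cell types in the levels of the 9 genes was not tested.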

How the data were processed

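Total RNA from the proximal colonic mucosa of 12 mice was sequenced by the authors with paired reads of 100 bases. The authors aligned reads with STAR 2.3.0 to GRCm38.p2 and counted them per gene with featureCounts. The annotation release, strand setting and treatment of multiply mapped reads are not given in the sources used here. The deposited files hold raw counts and the gene length per mouse. Most low counts were even, so both reads of a pair may have been counted. Counts are not independent molecules, and the floor of 3 counts covers counting error only.

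Symbols were matched by Ensembl identifier (GENCODE M21, 37607 of 38924 genes), which also gave positions. Counts were scaled by TMM and tested with edgeR 4.0.16 (quasi-likelihood, genotype as the only term, FDR under 0.05 and at least 2-fold) in R 4.3.3, with DESeq2 1.42.0, edgeR's exact test, other scaling and left-out mice as alternatives. Log2 CPM used a prior count of 2. Single genes were also compared by an exact two-sided permutation test, whose smallest possible p is 0.0022. RPKM was computed from the counts and the deposited lengths. The p-values were adjusted over all genes tested and not over the group.

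The group and the lists were chosen with earlier results of these data known. Named genes were all 9 of the group, the 10 most alike, Apc and the 2 most abundant markers of each cell type described. From each interferon list they were the 3 with the highest mean, the 1 with the lowest p and the 3 with the highest ratio in the mouse with the highest score. Epcam, Siglech, Cd8a and the shared copies were named beyond this rule, and 1 gene that the rule names is not reported here.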

Additional observations from a re-analysis of the deposited data

Results flagged for a closer look

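Groups of 6 mice were screened with Dixon's gap test, in which the gap of the highest or lowest mouse to its neighbour is divided by the range of the group and set against its critical value for 6 samples. Of 28 groups screened, 2 were flagged, and chance flags about 1 in 20 groups. The log2 CPM of Isg15 in APC Min/+ mouse M13_1 was the lowest of its genotype, with a gap of 0.633 of the range, at 2.87 CPM where the other 5 mice lay between 5.56 and 8.14 CPM. The interferon score of the same mouse was the lowest of its genotype, with a gap of 0.738 of the range. M13_1 is also 1 of the 2 mice with high Hoxb13, and the part of colon position in its score was not tested. M17_1 was flagged in 0 of its groups, and in the WT score its gap to the next mouse stayed below the critical value, with M17_2 and M18_b at the low end of that group.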

How the results depend on the processing

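No paired analysis was possible because replicate numbers here only order the mice within a genotype, and the labels do not say what the number in a mouse name marks (M18_2b and M18_2a share 1). The count of genes called between genotypes was 0 by edgeR's quasi-likelihood test in every fit run with it, 27 by DESeq2 and 10 by edgeR's exact test; the cause was not tested. With all mice, 1071 genes had an unadjusted p under 0.05 by the quasi-likelihood test, against 523 without M10_2, 601 without M13_1, 1828 without M2_A, 317 without M10_2 and M13_1 and 246 without these and M17_1. No fit called a gene of the group. Log2 fold changes that changed sign did so under upper-quartile scaling for Isg15 (-0.036) and Usp18 (-0.049), without M10_2 and M13_1 for Irf7 (0.029) and Zbp1 (-0.0051), and without those mice and M17_1, a fit added after seeing the data, for Ifit1 (0.46), Ifit3 (0.17) and Oasl2 (0.41). Leaving out each mouse in turn turned the sign in 16 cases, with ranges of -0.55 to 0.12 for Ifit1, -0.29 to 0.019 for Ifit3, -0.11 to 0.47 for Isg15, -0.36 to 0.28 for Oasl2 and -0.11 to 0.37 for Usp18. The upper end of each was the fit without M17_1. At a threshold of 1.5-fold in place of 2-fold, 7 genes were above the median in M17_1 and 3 in M10_2, and at 3-fold 1 gene was in M17_1. The shares of all genes at 1.5-fold and 3-fold are not given here, so these counts are not set against their libraries. Signs and calls of the 9 genes held under DESeq2, edgeR's exact test, no filter on low counts and the suffix of the mouse name as a further term, and mouse scores moved by less than the spread over mice. With 6 mice per genotype and 1 tissue sample each, small differences were not resolved, the shipment of a mouse is not in the labels, and shipment and genotype were not separated here.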

Other observations

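Some interferon-related genes followed the 2 mice with distal markers rather than the interferon score, and they are given here as values, chosen after they were seen. Oas3, an oligoadenylate synthetase gene, had 4.46 CPM (M10_2) and 1.59 CPM (M13_1), where the other 10 mice had 15.2 to 42.1 CPM. Lgals3bp, which encodes a secreted galectin-binding protein, was at 100.2 and 69.4 CPM, against 176 to 254 CPM in the others. Ido1 was at 0.889 and 1.41 CPM, against 7.01 to 16.6 CPM. Ifit1bl1, a relative of Ifit1, lay the other way, at 169 and 165 CPM in M10_2 and M13_1 and at 16.6 to 93.4 CPM in the other 10 mice. Ifngr1 was at 338 and 346 CPM, against 211 to 256 CPM. Both mice were APC Min/+, so in these 2 libraries genotype and position cannot be told apart, and none of these genes passed the adjusted threshold of the genotype comparison in edgeR's quasi-likelihood test.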
